A study of Mus musculus with 6 samples.

Results

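The proteasome genes of mouse thymocytes lacking Rpl22l1 were examined in RNA sequencing counts from 6 libraries. Members were the rows whose symbol begins with Psma, Psmb, Psmc, Psmd, Psme, Psmf or Psmg followed directly by a digit, leaving out symbols with -ps. This gave 49 of 34573 genes, and the 4 symbols with -ps that were left out had at most 35 reads in any library. Of the 49, Psmc3ip, matches by its symbol alone: it encodes a cofactor of meiotic recombination, so 48 of the members belong to the proteasome. The cells were double negative 3 (DN3) thymocytes, early T cell precursors that lack CD4, CD8 and CD44 and carry CD25, sorted from adult thymus at 6 to 8 weeks of age on a mixed C57BL/6 and 129 background. The 3 L1 KO libraries came from mice with floxed Rpl22l1 alleles and Cre, which the series text names as Vav-Cre, a transgene driven in blood-forming cells. The 3 WT libraries came from mice with the same floxed alleles and no Cre, so both groups carried the floxed gene. None of the 6 libraries came from mice with Cre and unfloxed alleles. An effect of Cre itself therefore cannot be told apart from that of the deletion. In the series text Cre is assigned to the opposite genotype, and the sample labels were followed here.

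The proteasome is the protease that degrades ubiquitin-tagged proteins in the cytosol and nucleus. Its 20S core is a barrel of outer alpha rings and inner beta rings, and some of the beta subunits cut peptide bonds. A 19S cap, with a ring of ATPases at its base and non-ATPase subunits around it, recognises ubiquitin chains, removes them and feeds the unfolded protein into the core. In lymphoid cells and under interferon, the catalytic beta subunits can be exchanged for immunoproteasome subunits, which change the peptides made for MHC class I, and thymic cortical epithelium has a further catalytic subunit of its own.

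Reads counted to genes numbered 13887672 to 28128186 in the L1 KO libraries and 19570475 to 21571810 in the WT libraries. Rpl22l1, the paralog of the ribosomal protein gene Rpl22 that was targeted, had 18.6, 19.996 and 26.1 CPM (read counts scaled to library size with TMM factors) in L1 KO libraries 1 to 3, against 86.3, 123 and 118 CPM in WT libraries 1 to 3, so each library matched its label. The 10 markers of DN3 thymocytes summed to 7459 to 8308 CPM in L1 KO and 7584 to 8359 CPM in WT, with 0 of the 10 called. The sum covers markers with opposite signs, with log2 fold changes from −0.39 for Rag2 to 0.82 for Dtx1. A second fit, the replicate block, took same-numbered libraries as pairs, which no label states. It called 2 of these markers higher and 4 lower, where 9.96% of all tested genes were called higher and 10.3% lower. The 5 markers that DN3 cells should lack summed to 28.3 to 39.5 CPM in L1 KO and 44.2 to 54.3 CPM in WT. Most of that was Kit, which fell to 25.8 CPM in L1 KO, against 42.3 CPM in WT. Cd44 averaged 3.33 CPM in L1 KO and 1.52 CPM in WT, with overlapping groups. Its adjusted p was 0.141 in edgeR without the block and 0.0116 in edgeR with it. Cd4 averaged 1.596 CPM in L1 KO and 1.73 CPM in WT. The part of these differences in the proteasome levels was not tested. Among the 48 tested members, 10 lay above their group mean in L1 KO 1 and 8 in WT 1, against 32 to 41 in each of the other 4 libraries, and the summed proteasome level was lowest in library 1 of either group.

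No proteasome gene passed the test for a difference between L1 KO and WT, yet nearly all had slightly higher means in L1 KO. Psmb11 did not pass the count filter, which left 48 tested members, Psmc3ip among them. Of these, 0 passed the quasi-likelihood test of edgeR at a Benjamini-Hochberg adjusted p of 0.05. By the same rule 4.57% of all 13729 tested genes were called, 2.14% higher and 2.43% lower. The log2 fold change was positive for 43 of the 48 members (89.6%), against 48.8% of all tested genes, and its median was 0.13, against −0.01 over all tested genes. Without Psmc3ip it was positive for 42 of 47 (89.4%). At an unadjusted p under 0.05, 15 members were higher and 1 lower, where 11.3% of all tested genes were higher and 12.1% lower. The L1 KO libraries lay entirely above the WT libraries for 15 members (31.2%), which held for 13.8% of all tested genes, and entirely below them for 1 member, which held for 14.7%; in either direction 28.4% of all tested genes were separated. Libraries with the same number were treated as pairs in a second fit, the replicate block, although no label states such a pairing. It called 10 members higher (20.8%) and 1 lower, where 9.96% of all tested genes were called higher and 10.3% lower. DESeq2 without the block called 2 members higher and 0 lower, where 4.46% of all tested genes were higher and 4.44% lower. DESeq2 with the block called 6 members higher and 0 lower, where 6.67% were higher and 5.76% lower. Limma-voom called 0 members, where 1.80% were higher and 2.09% lower. Within same-numbered pairs the median log2 ratio of the members was 0.14, 0.13 and 0.10 for numbers 1, 2 and 3, against −0.01, −0.0028 and −0.0048 over all tested genes.

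**Figure D1:**
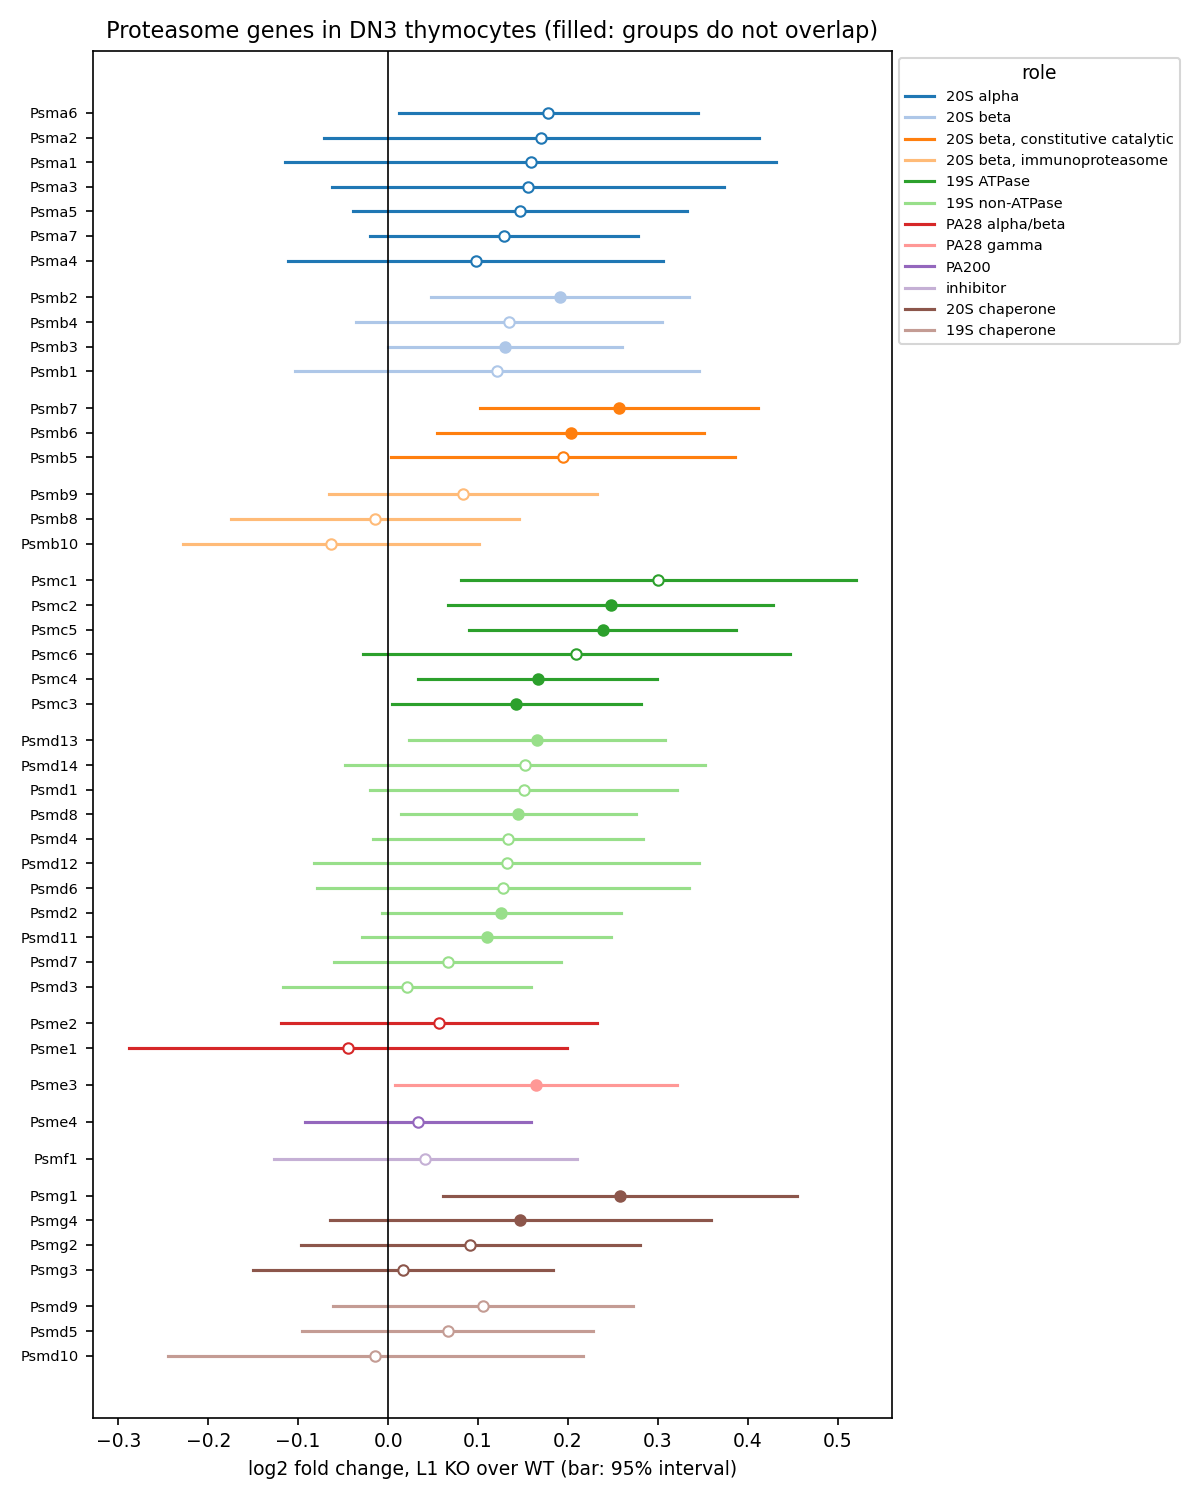
Log2 fold change of L1 KO over WT for 46 proteasome rows by role, with 95% intervals from edgeR, filled where the 3 L1 KO and 3 WT libraries do not overlap. Psma8, with −0.97, Psmb11, which was not tested, and Psmc3ip are not drawn. All 31 members of the constitutive core and cap lie right of 0 and the immunoproteasome subunits lie around it.

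The members that encode the constitutive particle had small positive values throughout. They encode 7 alpha, 7 constitutive beta, 6 ATPase and 11 non-ATPase subunits. Cap subunits with other symbols, such as Sem1, fall outside the rule and are described further on. All 31 of these genes had a positive log2 fold change, from 0.02 to 0.30, with a median of 0.15. The replicate block called 9 of them higher (29.0%) and 0 lower, where 9.96% of all tested genes were higher and 10.3% lower. Summed over the 31 genes, the level was 4167, 4564 and 4577 CPM in L1 KO libraries 1 to 3, against 3736, 4091 and 4133 CPM in WT libraries 1 to 3. The groups did not overlap, but the lowest L1 KO library, number 1, lay only just above the highest WT library, number 3. With libraries scaled by their size alone, the median over all tested genes moved to −0.04, and 30 of the 31 genes were positive, with Psmd3 at −0.0099.

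**Figure D2:**
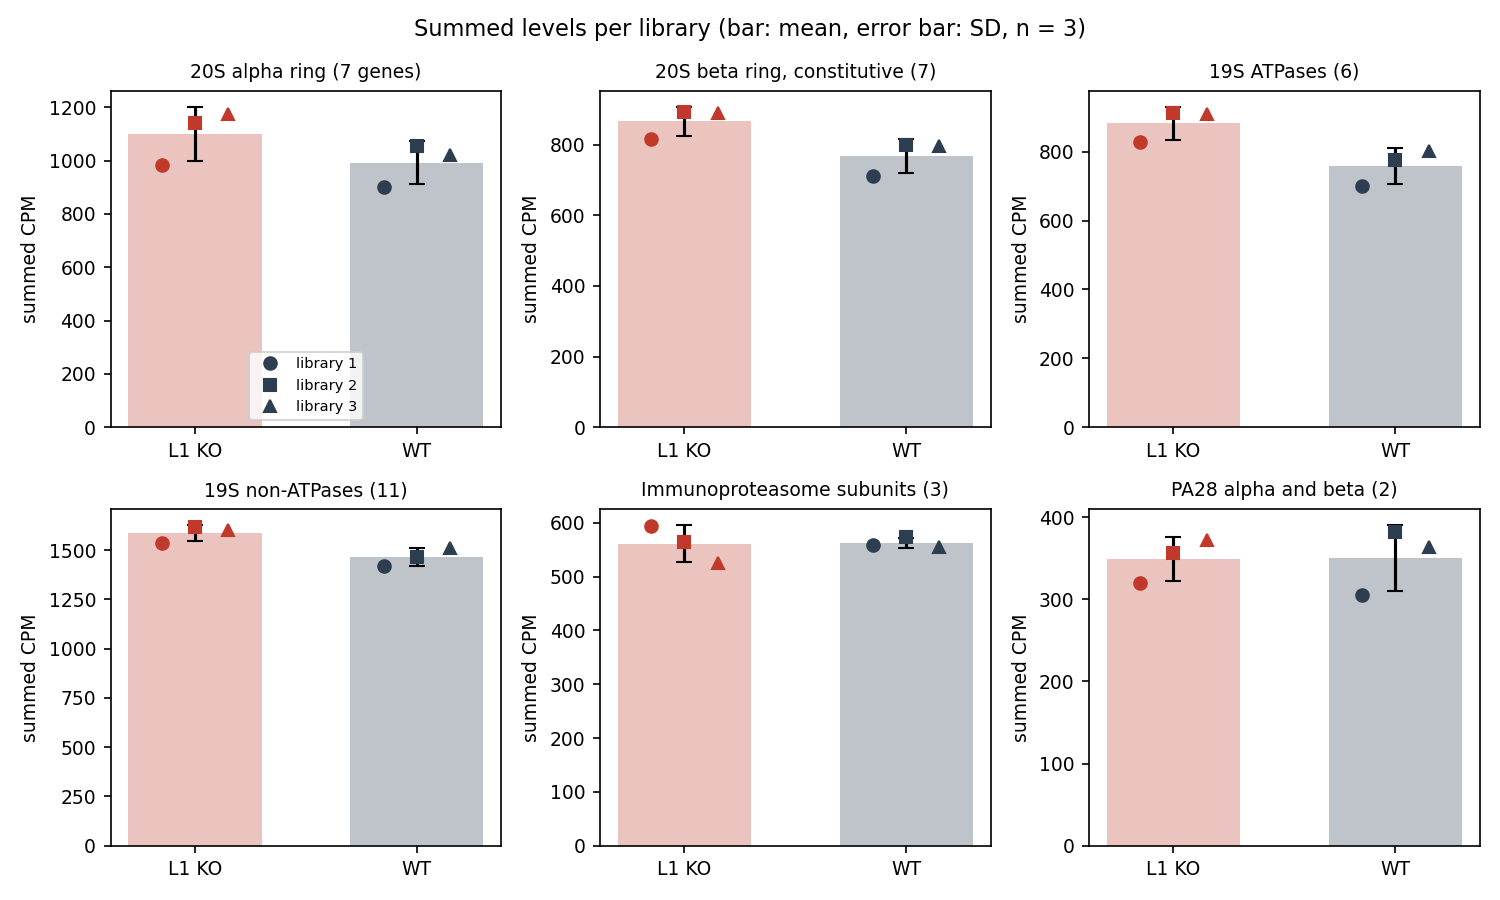
Summed CPM per library for 6 groups of proteasome genes, with bars for the mean and error bars for the SD of 3 libraries. In the constitutive beta, ATPase and non-ATPase panels every L1 KO library lies above every WT library; in the alpha, immunoproteasome and PA28 panels the groups overlap.

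The alpha ring forms the gate of the core, through which substrates enter. Its 7 genes, Psma1 to Psma7, summed to 983, 1143 and 1176 CPM in L1 KO libraries 1 to 3, against 901, 1054 and 1022 CPM in WT libraries 1 to 3. L1 KO 1 lay below both WT 2 and WT 3, and for none of the 7 genes did the groups separate. Log2 fold changes ran from 0.10 for Psma4 to 0.18 for Psma6, and Psma2 alone passed with the block, at an adjusted p of 0.0435 in edgeR. Per kilobase of exon, the mean level was highest for Psma6, at 155 CPM per kb in L1 KO and 137 in WT, and lowest for Psma2, at 55.0 in L1 KO and 48.8 in WT. Psma8, an alternative alpha subunit of testis proteasomes, differed from this pattern. It had 2.30, 1.81 and 1.24 CPM in L1 KO libraries 1 to 3, against 5.41, 2.88 and 2.39 CPM in WT libraries 1 to 3. Every L1 KO library lay below every WT library, though L1 KO 1 and WT 3 were close. Its log2 fold change of −0.97 ± 0.35 (SE) had an adjusted p of 0.135 in edgeR and 0.00848 with the block. Psma8 rests on 126 reads in L1 KO and 225 in WT, of which WT 1 held 119. Without WT 1 its log2 fold change was −0.53, and without WT 3 it was −1.18. Reads aligned to both Psma8 and its close paralog Psma7 count for neither, since reads aligned to several places were set aside.

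The constitutive catalytic subunits of the beta ring had some of the larger differences. Psmb7 encodes the subunit with trypsin-like activity. It had 142, 156 and 154 CPM in L1 KO libraries 1 to 3, against 117, 133 and 127 CPM in WT libraries 1 to 3. All 3 L1 KO libraries lay above all 3 WT libraries. The log2 fold change of 0.26 ± 0.07 (SE) had an adjusted p of 0.0661 in edgeR, the smallest among the members, 0.0313 with DESeq2 and 0.00571 with the block in edgeR. Psmb6, which encodes the caspase-like subunit, had 121, 127 and 122 CPM in L1 KO libraries 1 to 3, against 98.7, 112 and 111 CPM in WT libraries 1 to 3. Its groups did not overlap either, and its log2 fold change of 0.20 ± 0.07 (SE) had an adjusted p of 0.106 in edgeR and 0.0233 with the block. Psmb5, which encodes the chymotrypsin-like subunit that the drug bortezomib inhibits, had 61.2, 56.5 and 61.4 CPM in L1 KO libraries 1 to 3, against 46.8, 53.0 and 56.6 CPM in WT libraries 1 to 3. L1 KO 2 lay marginally below WT 3, so the groups overlapped, and the log2 fold change of 0.19 ± 0.08 (SE) had an adjusted p of 0.205 in edgeR. Among the non-catalytic beta subunits, Psmb1 to Psmb4 had log2 fold changes of 0.12 to 0.19, and Psmb2 passed with the block, at an adjusted p of 0.0271 in edgeR.

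Promoter sequence was compared across members because the constitutive subunits leaned one way together. RefSeq windows from 250 bases before to 50 bases after the annotated start were found for 41 of the 49 members on GRCm38.p6. The transcription factor NRF1, encoded by Nfe2l1, is known to act on proteasome promoters through antioxidant response elements, and the search letters TGACNNNGC stand for the core of that element. They matched on either strand in 6 of the 41 members (14.6%) and in 14% of 27025 genes with a window. Those genes were taken whether or not they were tested here. The members with a match include Psmb5 and Psmb6, shown here on their minus and plus strands with the match in capitals, at chr14:54617946-54618245 and chr11:70525107-70525406.
Psmb5: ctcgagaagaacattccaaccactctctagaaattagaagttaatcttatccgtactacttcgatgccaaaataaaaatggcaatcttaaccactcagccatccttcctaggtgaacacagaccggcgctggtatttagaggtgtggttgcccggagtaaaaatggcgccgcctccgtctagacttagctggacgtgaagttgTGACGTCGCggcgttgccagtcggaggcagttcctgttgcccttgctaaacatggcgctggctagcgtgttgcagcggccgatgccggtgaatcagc
Psmb6: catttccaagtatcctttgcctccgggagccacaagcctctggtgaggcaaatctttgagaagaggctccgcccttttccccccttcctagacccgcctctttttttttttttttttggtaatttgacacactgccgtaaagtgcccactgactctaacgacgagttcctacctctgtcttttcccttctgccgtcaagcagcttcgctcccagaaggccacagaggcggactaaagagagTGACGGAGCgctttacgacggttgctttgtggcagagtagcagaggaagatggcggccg

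The ATPases of the 19S base, which unfold substrates and open the gate of the core, had the highest median of any role, with log2 fold changes of 0.14 to 0.30 and a median of 0.22 over 6 genes. Their sum was 827, 913 and 908 CPM in L1 KO libraries 1 to 3, against 701, 774 and 803 CPM in WT libraries 1 to 3, without overlap. Psmc1 had the largest log2 fold change of all members, 0.30 ± 0.10 (SE), at an adjusted p of 0.106 in edgeR and 0.00548 with the block. It had 163, 206 and 195 CPM in L1 KO libraries 1 to 3, against 140, 152 and 165 CPM in WT libraries 1 to 3. L1 KO 1 lay just below WT 3, while L1 KO 2 and 3 lay above all WT libraries. Psmc5 had 135, 142 and 135 CPM in L1 KO libraries 1 to 3, against 108, 119 and 123 CPM in WT libraries 1 to 3. Its groups did not overlap, and its log2 fold change of 0.24 ± 0.07 (SE) had an adjusted p of 0.0721 in edgeR, 0.0416 with DESeq2 and 0.0122 with the block in edgeR. Psmc2 had 107, 114 and 127 CPM in L1 KO libraries 1 to 3, against 90.03, 99.1 and 103 CPM in WT libraries 1 to 3, again without overlap. With the block Psmc1, Psmc2, Psmc4, Psmc5 and Psmc6 were called higher, and Psmc3, with an adjusted p of 0.0912 in edgeR, was not. Per kilobase of exon the mean was highest for Psmc1, at 118 CPM per kb in L1 KO and 95.8 in WT, and lowest for Psmc6, at 57.6 in L1 KO and 49.8 in WT.

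The letters CCGGAAG, a core bound by ETS transcription factors, matched on either strand in the windows of 15 of 41 members (36.6%) and of 9.93% of all genes with a window. They were present in 10 of the 25 constitutive core and cap subunits with a window, and in 0 of the 5 interferon-inducible members described further on. Among the ATPases, Psmc6, with a log2 fold change of 0.21, had a match, and Psmc4 and Psmc5, with 0.17 and 0.24, had none. Psmg3 and Psmc3ip, with 0.02 and 0.03, had a match as well. Whether a match goes with the log2 fold change was not tested. Psmc1 and Psmc2, the largest 2 log2 fold changes among the ATPases, are shown with that match in capitals (which reads as its reverse complement here), both on the plus strand, at chr12:100109952-100110251 and chr5:21785025-21785324. Psmc2 has 2 windows, of which the first is shown.
Psmc1: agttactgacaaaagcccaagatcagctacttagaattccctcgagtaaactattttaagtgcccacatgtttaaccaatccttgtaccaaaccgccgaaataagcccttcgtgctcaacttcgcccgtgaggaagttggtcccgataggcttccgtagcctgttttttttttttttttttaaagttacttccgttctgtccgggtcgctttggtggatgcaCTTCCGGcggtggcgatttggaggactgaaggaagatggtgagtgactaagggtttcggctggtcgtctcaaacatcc
Psmc2: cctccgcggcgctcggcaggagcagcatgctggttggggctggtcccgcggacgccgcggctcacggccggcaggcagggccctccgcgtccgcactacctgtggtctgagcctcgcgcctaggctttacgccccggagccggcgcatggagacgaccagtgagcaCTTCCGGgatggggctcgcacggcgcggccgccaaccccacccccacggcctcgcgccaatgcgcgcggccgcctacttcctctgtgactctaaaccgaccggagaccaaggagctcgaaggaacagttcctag
The short CCAAT box matched in 15 of the 41 members too (36.6%), against 41.1% of all genes with a window. Matches of different motifs overlapped in 0 cases in the members' windows, and a match does not show that a factor binds there.

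The non-ATPase subunits of the 19S cap had smaller differences than the ATPases, with log2 fold changes of 0.02 to 0.17 and a median of 0.13 over 11 genes, but the difference between the roles was not tested. All 11 were positive and 0 passed, with or without the block. Their sum was 1539, 1616 and 1604 CPM in L1 KO libraries 1 to 3, against 1422, 1465 and 1514 CPM in WT libraries 1 to 3. Psmd14, which encodes the deubiquitinase that removes ubiquitin chains at the entrance, had 106, 124 and 123 CPM in L1 KO libraries 1 to 3, against 94.4, 110 and 113 CPM in WT libraries 1 to 3. Its groups overlapped through L1 KO 1, and the log2 fold change was 0.15, with a 95% interval of −0.048 to 0.35. Psmd4, which encodes a ubiquitin receptor of the cap, had 124, 131 and 113 CPM in L1 KO libraries 1 to 3, against 109, 112 and 115 CPM in WT libraries 1 to 3. L1 KO 3 lay between WT 2 and WT 3, and the log2 fold change was 0.13, with a 95% interval of −0.016 to 0.28. Groups did not overlap for Psmd2, Psmd8, Psmd11 and Psmd13. Psmd2, a large scaffold subunit, had 292, 286 and 286 CPM in L1 KO libraries 1 to 3, against 264, 258 and 270 CPM in WT libraries 1 to 3. Psmd3 was the flattest, at 236 ± 8.18 CPM in L1 KO and 232 ± 6.47 CPM in WT (SD, n = 3 each).

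Of the 3 immunoproteasome subunits 1 had a positive log2 fold change and 0 passed, at a median of −0.01. Whether they differ from the constitutive subunits was not tested. Psmb8, the counterpart of Psmb5, had 386, 361 and 335 CPM in L1 KO libraries 1 to 3, against 368, 365 and 361 CPM in WT libraries 1 to 3. L1 KO 1 lay above all WT libraries and L1 KO 3 below them, and the log2 fold change was −0.01, with a 95% interval of −0.17 to 0.15. Psmb9, the counterpart of Psmb6, had 120, 118 and 105 CPM in L1 KO libraries 1 to 3, against 109, 111 and 105 CPM in WT libraries 1 to 3. The groups overlapped through L1 KO 3, and the log2 fold change was 0.08, with a 95% interval of −0.066 to 0.23. Psmb10, the counterpart of Psmb7, had 87.8, 86.7 and 84.6 CPM in L1 KO libraries 1 to 3, against 82.7, 97.8 and 90.3 CPM in WT libraries 1 to 3. The L1 KO values lay within the WT range, and the log2 fold change was −0.06, with a 95% interval of −0.23 to 0.10. L1 KO 1 had the highest level of its group for all 3 genes, and the lowest of its group for the summed constitutive subunits. With the block 0 of the 3 passed.

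The share of immunoproteasome to constitutive subunit was taken per library on levels per kilobase of exon. Psmb8 to Psmb5 was 3.49, 3.53 and 3.02 in L1 KO libraries 1 to 3, against 4.34, 3.80 and 3.52 in WT libraries 1 to 3. The ratio was above 1 in every library, and L1 KO 2 lay marginally above WT 3. Psmb9 to Psmb6 was 0.584, 0.548 and 0.508 in L1 KO libraries 1 to 3, against 0.651, 0.582 and 0.556 in WT libraries 1 to 3, with overlapping groups. Psmb10 to Psmb7 was 0.548, 0.493 and 0.487 in L1 KO libraries 1 to 3, against 0.626, 0.650 and 0.627 in WT libraries 1 to 3. For this pair alone the groups did not overlap, and L1 KO averaged 0.509 ± 0.034 against 0.634 ± 0.013 in WT (SD, n = 3 each). No p is given for these ratios, which combine members, and a change in either gene moves them.

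**Figure D3:**
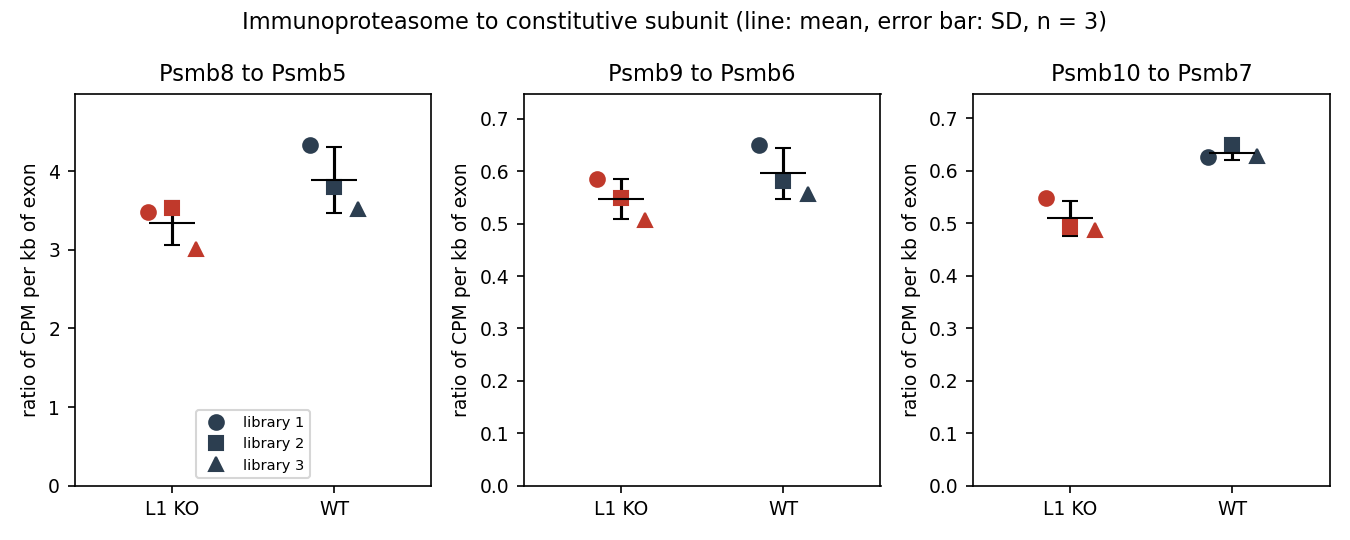
Ratio of immunoproteasome to constitutive catalytic subunit per library, as CPM per kb of exon, with a line for the mean and error bars for the SD of 3 libraries. The L1 KO means lie below the WT means in each panel, and the groups separate only for Psmb10 to Psmb7.

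Psmb11, the catalytic subunit of cortical thymic epithelium, served as a marker of non-T cells and had 8, 2 and 3 reads in L1 KO libraries 1 to 3, against 2, 2 and 1 reads in WT libraries 1 to 3. Its gene lies beside Psmb5 on chromosome 14. The 8 epithelial markers, Psmb11 among them, summed to 145 to 154 CPM in L1 KO and 179 to 200.4 CPM in WT. Of these, 3 passed the count filter and Epcam fell, while Foxn1, the defining transcription factor, averaged 0.024 CPM in L1 KO and 0.030 CPM in WT. Dendritic cells are another source of immunoproteasome subunits. The 8 dendritic markers summed to 4.20 to 6.00 CPM in L1 KO and 8.64 to 10.7 CPM in WT, 4 of them passed the count filter, and Cd74 and H2-Eb1 fell. Xcr1 had 0 reads in all 6 libraries and Siglech 0 in the L1 KO libraries. The 5 B lineage markers summed to 23.7 to 27.1 CPM in L1 KO and 30.5 to 33.0 CPM in WT, and Cd79b fell. Sums overlapped between the groups for the 7 myeloid and the 5 NK and innate lymphoid markers. The part of these markers in the immunoproteasome levels was not tested. In bulk RNA, fewer cells of a type and less RNA per cell cannot be told apart.

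The activators that replace or join the 19S cap were divided by kind. Psme1 and Psme2 encode the alpha and beta chains of PA28, which interferon raises and which favours peptide release. Psme1 had 183, 210 and 224 CPM in L1 KO libraries 1 to 3, against 182, 234 and 221 CPM in WT libraries 1 to 3. Psme2 had 137, 146 and 148 CPM in L1 KO libraries 1 to 3, against 123, 149 and 142 CPM in WT libraries 1 to 3. In both genes library 1 was lowest in either group and the groups overlapped, with log2 fold changes of −0.04 (95% interval −0.29 to 0.20) and 0.06 (−0.12 to 0.23). Psme3, which encodes the nuclear PA28 gamma, had 264, 283 and 276 CPM in L1 KO libraries 1 to 3, against 236, 235 and 263 CPM in WT libraries 1 to 3. Its groups were separate, L1 KO 1 only narrowly from WT 3, and its log2 fold change of 0.16 had an adjusted p of 0.195 in edgeR and 0.0608 with the block. Psme4, which encodes PA200, an activator linked to histone degradation, had 103, 108 and 106 CPM in L1 KO libraries 1 to 3, against 106, 104 and 101 CPM in WT libraries 1 to 3. These overlapped, with a log2 fold change of 0.03 and a 95% interval of −0.093 to 0.16. Psmf1, named for its inhibition of the core in vitro, averaged 37.8 ± 1.86 CPM in L1 KO and 36.7 ± 1.86 CPM in WT (SD, n = 3 each).

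Psmb8, Psmb9, Psmb10, Psme1 and Psme2 are the members known to respond to interferon. The letters GAAA, any 2 bases and GAAA again stand for the interferon-stimulated response element. They matched in the window of Psme1 and in none of the other 4. Over all members they matched in 5 of 41 (12.2%), against 3.99% of all genes with a window, tested or not. The matches besides Psme1 were in Psmb3, Psmd4, Psmd9 and Psmg4, which are outside the interferon-inducible group. Whether the matches bear on interferon was not tested. The Psme1 window, on the plus strand at chr14:55578244-55578543, is shown with the match in capitals (its reverse complement).
Psme1: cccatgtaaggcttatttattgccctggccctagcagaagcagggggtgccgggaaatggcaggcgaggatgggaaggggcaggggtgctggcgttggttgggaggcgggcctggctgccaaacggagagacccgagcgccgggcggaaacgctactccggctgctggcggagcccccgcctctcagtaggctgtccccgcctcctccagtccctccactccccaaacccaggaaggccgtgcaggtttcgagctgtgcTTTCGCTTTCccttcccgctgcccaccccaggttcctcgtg

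Chaperones that build the particle gave small differences. Psmg1 to Psmg4 encode chaperones that assemble the alpha ring. Psmg1 had 47.7, 54.9 and 55.6 CPM in L1 KO libraries 1 to 3, against 40.4, 45.7 and 46.1 CPM in WT libraries 1 to 3. The groups did not overlap, and the log2 fold change of 0.26 ± 0.09 (SE) had an adjusted p of 0.118 in edgeR and 0.0130 with the block. Psmg2, Psmg3 and Psmg4 had log2 fold changes of 0.09, 0.02 and 0.15, and none passed with the block. Psmd5, Psmd9 and Psmd10 encode chaperones of the 19S base, and their log2 fold changes were 0.07, 0.11 and −0.01, with overlapping groups. Psmc3ip, which is no proteasome gene, had a log2 fold change of 0.03.

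Levels per kilobase placed Psmb8 first among all members, at 222 CPM per kb in L1 KO and 224 in WT. Psme1 came second, at 185 in L1 KO and 191 in WT. Psmb3, a non-catalytic beta subunit, followed with 168 in L1 KO and 153 in WT. The lowest tested members were Psma8, at 1.05 in L1 KO and 2.10 in WT, and Psmf1, at 9.47 in L1 KO and 9.19 in WT. Of the 47 pairs of neighbours in the order of levels, 33 in L1 KO and 31 in WT differed by no more than the larger SD of the pair. Psmb8 lay above Psme1 by more than that in both groups. Exon lengths are unions over annotated transcripts, so a gene with long unused exons appears lower than it is.

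**Figure D4:**
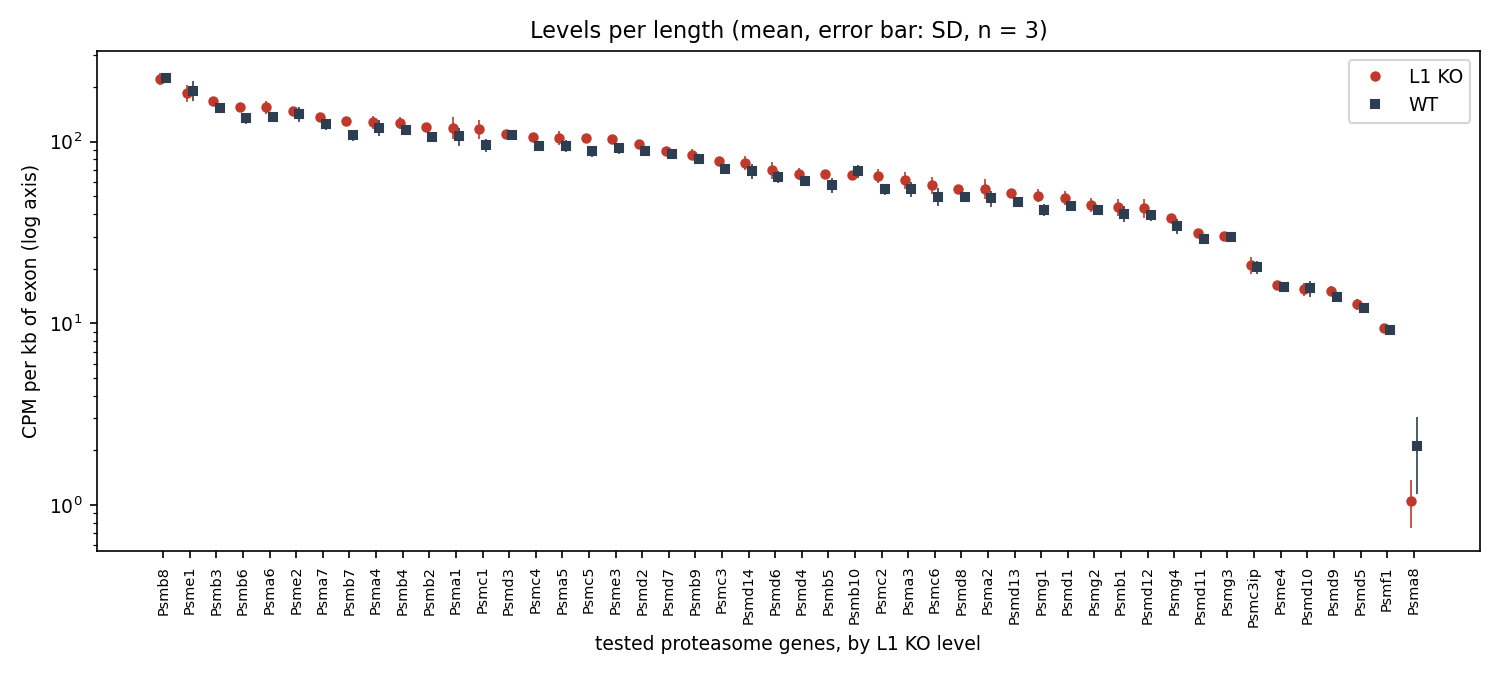
Mean level of the 48 tested members in CPM per kb of exon on a log axis, with error bars for the SD of 3 libraries, in order of the L1 KO mean. Psmb8 stands at 222 in L1 KO and 224 in WT, and Psma8 lies far below all others.

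Other genes of the ubiquitin-proteasome pathway were taken from a list chosen by function, of which 45 were tested and Paaf1 was not used here. In edgeR without the block 4 rose and 1 fell, against a background of 2.14% higher and 2.43% lower. The block gave 11 higher and 3 lower, where 9.96% of all tested genes were higher and 10.3% lower. Of the 21 tested receptors, docking and maturation factors, 19 were positive and 0 passed. Among these, Pomp, which matures the beta ring, had a log2 fold change of 0.05, Adrm1, a ubiquitin receptor, 0.10, and Sem1, listed as Shfm1, a small cap subunit, 0.17. Nfe2l1, which encodes the factor that raises proteasome genes when the proteasome is impaired, had 80.6, 75.2 and 77.0 CPM in L1 KO libraries 1 to 3, against 79.3, 78.6 and 82.6 CPM in WT libraries 1 to 3. Its groups overlapped, with a log2 fold change of −0.05 and a 95% interval of −0.19 to 0.09. Mafk, a small MAF protein that pairs with that factor, had 84.9, 77.2 and 73.7 CPM in L1 KO libraries 1 to 3, against 98.4, 97.9 and 98.3 CPM in WT libraries 1 to 3. It fell, with a log2 fold change of −0.32 ± 0.07 (SE) at an adjusted p of 0.0337 in edgeR.

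Genes that act with the immunoproteasome in loading MHC class I numbered 10 among those tested, of which 3 rose and 0 fell. Their log2 fold changes were positive for 5 of the 10, with a median of 0.01, and the block called 4 higher and 2 lower. Those lower with the block were Tapbp, which encodes tapasin, with a log2 fold change of −0.25 and separate groups, and Irf1, an interferon regulatory factor, with −0.19 and overlapping groups. Nlrc5, the transcriptional activator of class I genes, had 65.6, 60.8 and 68.9 CPM in L1 KO libraries 1 to 3, against 25.1, 34.0 and 40.1 CPM in WT libraries 1 to 3. The groups were widely separated, and Nlrc5 rose by 0.98 ± 0.15 (SE) on the log2 scale, at an adjusted p of 0.0168 in edgeR. B2m, the class I light chain, had 817, 762 and 902 CPM in L1 KO libraries 1 to 3, against 499, 660 and 609 CPM in WT libraries 1 to 3. It rose by 0.49 ± 0.11 (SE) on the log2 scale, at an adjusted p of 0.042 in edgeR, which was 0.0523 with limma-voom and 0.0569 with robust fitting off. Tap1, which encodes a subunit of the peptide transporter, had 203, 187 and 199 CPM in L1 KO libraries 1 to 3, against 162, 144 and 160 CPM in WT libraries 1 to 3. It rose by 0.34 ± 0.07 (SE) on the log2 scale, at an adjusted p of 0.0261 in edgeR. On GRCm38 Tap1 (chr17:34187553-34197225, plus strand) lies between Psmb9 (chr17:34181987-34187764, minus strand) and Psmb8 (chr17:34197721-34201454, plus strand). Psmb9 and Tap1 overlap at their starts in the annotation, and without a known strand setting reads from that stretch cannot be assigned with certainty. Psmb9 and Psmb8 had log2 fold changes of 0.08 and −0.01, and whether they differ from Tap1 was not tested. The number of partners called moved with the libraries used: 0 were called without L1 KO 2, without L1 KO 3 or without WT 2, 1 without WT 3, 2 without WT 1 and 13 without L1 KO 1. Over these fits the log2 fold change ranged over 0.812 to 1.145 for Nlrc5, 0.38 to 0.58 for B2m, 0.29 to 0.38 for Tap1 and −0.37 to −0.27 for Mafk.

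The count of members called moved when L1 KO 1 was left out, alone or together with WT 1. Without WT 1 alone, 0 members were called, where 1.37% of all tested genes were higher and 1.61% lower. Without L1 KO 1, 8 members were higher and 0 lower, where 7.99% of all tested genes were higher and 7.61% lower. Without both number 1 libraries, 11 were higher and 0 lower, where 10.6% of all tested genes were higher and 10.5% lower. The 11 were Psma1, Psma2, Psma6, Psmb2, Psmb7, Psmc1, Psmc2, Psmc5, Psmc6, Psmd1 and Psmg1. None of the immunoproteasome subunits was called in any of these fits.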

How the data were processed

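RNA was sequenced from 3 L1 KO and 3 WT samples of sorted DN3 thymocytes. The authors' deposited table holds raw counts for 34573 gene symbols and 5 summary rows. TopHat2, HTSeq and GRCm38 are named in the submitters' processing notes, while versions, annotation and strand setting were not given in the sources used here. Columns named Ctrl were matched to WT titles by number, which accounted for every column of samples. Summary rows entered neither library sizes nor tests: the share of reads outside any feature was 50.4% to 51.9% of a column, reads aligned to several places 9.14% to 10.2%, and ambiguous reads 0.498% to 0.52%.

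The test was run in R 4.3.3 with edgeR 4.0.16, using filterByExpr (minimum count 10, minimum total 15), TMM scaling, glmQLFit (robust) and a two-sided quasi-likelihood F test, with Benjamini-Hochberg adjustment over all tested genes at 0.05. Standard errors are the log2 fold change over the root of F, and 95% intervals use the test's degrees of freedom. DESeq2 1.42.0 and limma 3.58.1 served as alternatives, beside other scalings and filters. The code was tested on simulated data. Levels are mean ± SD of 3 libraries. Exon lengths and positions come from GENCODE vM21 (GRCm38) and were found for all 49 members. Sequences come from RefSeq, GRCm38.p6.

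Both groups carry the numbers 1 to 3 in their titles. Same-numbered libraries deviated together from their group means, with correlations across genes of 0.58, 0.17 and 0.34. Each exceeds 0.1, so the numbers were taken as pairs. Unlike numbers passed 0.1 as well: WT 2 with L1 KO 3, at 0.29, and WT 3 with L1 KO 2, at 0.22. Those values are above the 0.17 of WT 2 with L1 KO 2. The rule therefore cannot tell the pairs among numbers 2 and 3. No label names a shared litter or day, and the pairing was taken from these same data. Results with the block hold only under that pairing. Since no label says that each library is a separate mouse, p-values cover only the variation among these samples, possibly technical. Precision rests on 13887672 to 28128186 gene reads per library, and without molecular identifiers reads cannot be taken as independent molecules.

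The members, lists and named genes were chosen with earlier results of these data known. Values per library were set down for catalytic subunits and their immunoproteasome counterparts, activators, Psmd4, Psmd14, the largest and smallest log2 fold changes, and partners past the threshold, of which 1 is not reported here. Psmc2, Psmc5, Psmd2, Psmd3, Psmf1 and Psmg1 were added after their values were seen.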

Additional observations from a re-analysis of the deposited data

How the results depend on the processing

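The replicate block called 11 members in place of 0, 14 pathway partners in place of 5, and 2785 genes in all in place of 628. DESeq2 called 2 members and 1222 genes in all. DESeq2 with the replicate block, an alternative chosen after seeing the data, called 6 members, 12 partners and 1707 genes. With no count filter 1 member, Psmb7, and 1037 genes were called. Without both number 1 libraries 11 members, 16 partners and 2881 genes were called. The cause of these differences was not tested. Leaving out 1 library at a time gave 0 to 8 members, 0 to 13 partners, and 109 genes (without WT 2) to 2177 genes (without L1 KO 1), with a median log2 fold change of the members of 0.089 to 0.17. With libraries scaled by size alone that median was 0.10, and all genes split into 254 higher and 412 lower, against 294 and 334. RLE size factors, limma-voom, a filter of 5 CPM and robust fitting off left the count of members at 0.

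Sign changes occurred among genes with log2 fold changes near 0. Scaling by size alone gave −0.00041 for Psmc3ip, −0.0099 for Psmd3 and −0.014 for Psmg3, and Psmd3 had −0.0031 without both number 1 libraries. Leaving out 1 library at a time gave ranges that span 0: −0.060 to 0.040 for Psmb8, −0.037 to 0.12 for Psmc3ip, −0.081 to 0.072 for Psmd10, −0.14 to 0.040 for Psme1, −0.019 to 0.11 for Psme2, −0.0041 to 0.048 for Psmg3 and −0.043 to 0.15 for Pomp. The members' standard errors were 0.056 to 0.12 apart from Psma8. In the main edgeR fit even Psmc1, with a log2 fold change of 0.30, and Psmb7, with 0.26, did not pass. Log2 differences of about 0.1 were therefore not resolved with 3 libraries per group.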
